A study of Mus musculus with 18 samples.

Results

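The testes compared here differ in the genotype given for Fshr, the follicle stimulating hormone receptor gene. They share a null genotype of the luteinizing hormone receptor gene Lhr (Lhcgr). The comparison takes the 5 arrays of the genotype Fshr mutant/Lhr null, called the double mutant below, against the 5 arrays of the genotype Lhr null, so 10 of the 18 arrays of the series. It asks what the Fshr mutation restores in a testis without the luteinizing hormone receptor. The column headers write the genotypes as Fshr-CAM/Lhr-/- and WT/Lhr-/-, and both groups carry the null allele. All mice were 12 weeks old and came from an FVB/N x C57/BL6 cross, and whole testis was the tissue. The other arrays are 4 wild type and 4 Fshr mutant arrays, and the wild type arrays serve below as a reference level. Neither the labels nor the headers say what the Fshr mutation does, which promoter drives it or whether arrays came from different animals. The p-values therefore rest on the spread between arrays, which may be technical. In the published mouse line of that name, CAM stands for a constitutively active mutant receptor.

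The receptor for follicle stimulating hormone sits on Sertoli cells, the supporting cells of the seminiferous tubule, and acts mainly through cyclic AMP. The receptor for luteinizing hormone sits on Leydig cells of the interstitium and drives the synthesis of testosterone. Testosterone acts on Sertoli cells through the androgen receptor, and without it germ cells stop at the round spermatid stage, before the sperm tail and the compact sperm chromatin are formed. Mice without this receptor are known for small testes, low testosterone and an arrest at that stage.

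The targeted gene was read first. On the brighter Fshr probe the log2 intensity was 7.57, 8.34, 7.997, 7.68 and 8.09 on Lhr null arrays 1 to 5. It was 8.84, 5.68, 8.61, 9.25 and 8.45 on the arrays labelled double mutant 1 to 5. Wild type arrays lay between 5.16 and 5.85, and Fshr mutant arrays between 8.44 and 8.74. The array labelled double mutant 2 thus lay within the wild type range, while the other 4 lay above every Lhr null array. With all 10 arrays the difference was 0.23 ± 0.45 (log2, standard error, n = 5 and 5) and was not called (adjusted p = 0.65). Without that array it was 0.85, a description only, since the array was set aside for this very value. A second Fshr probe gave 7.89 to 8.49 in Lhr null and 5.44 to 6.24 in the double mutant, a difference of -2.49 (adjusted p = 1.57e-09). Its means were 5.98 in wild type, 5.62 in Fshr mutant and 5.71 in the double mutant, so only Lhr null stood apart on it. The 2 probes thus moved in opposite directions, and which part of the transcript each one reads is not analysed here. No named probe for Lhcgr is among the probes here, so the null allele could not be checked.

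Every result below was also computed without the array labelled double mutant 2. Over the 18161 probes that passed the filter, its root mean square log2 difference from the mean of the other double mutant arrays was 0.282, inside the range of 0.259 to 0.327 of the group. It was the closest of the 5 to wild type, at 0.313 against 0.341 to 0.394. One Lhr null array also stood apart. Lhr null array 1 was 0.698 from the wild type mean, whereas the other Lhr null arrays were 0.950 to 1.10 from it, and it lay 0.483 from the rest of its own group. The detected probes per array numbered 15487 to 18950 over the 10 arrays. Precision is limited by the small number of arrays.

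**Figure D1:**
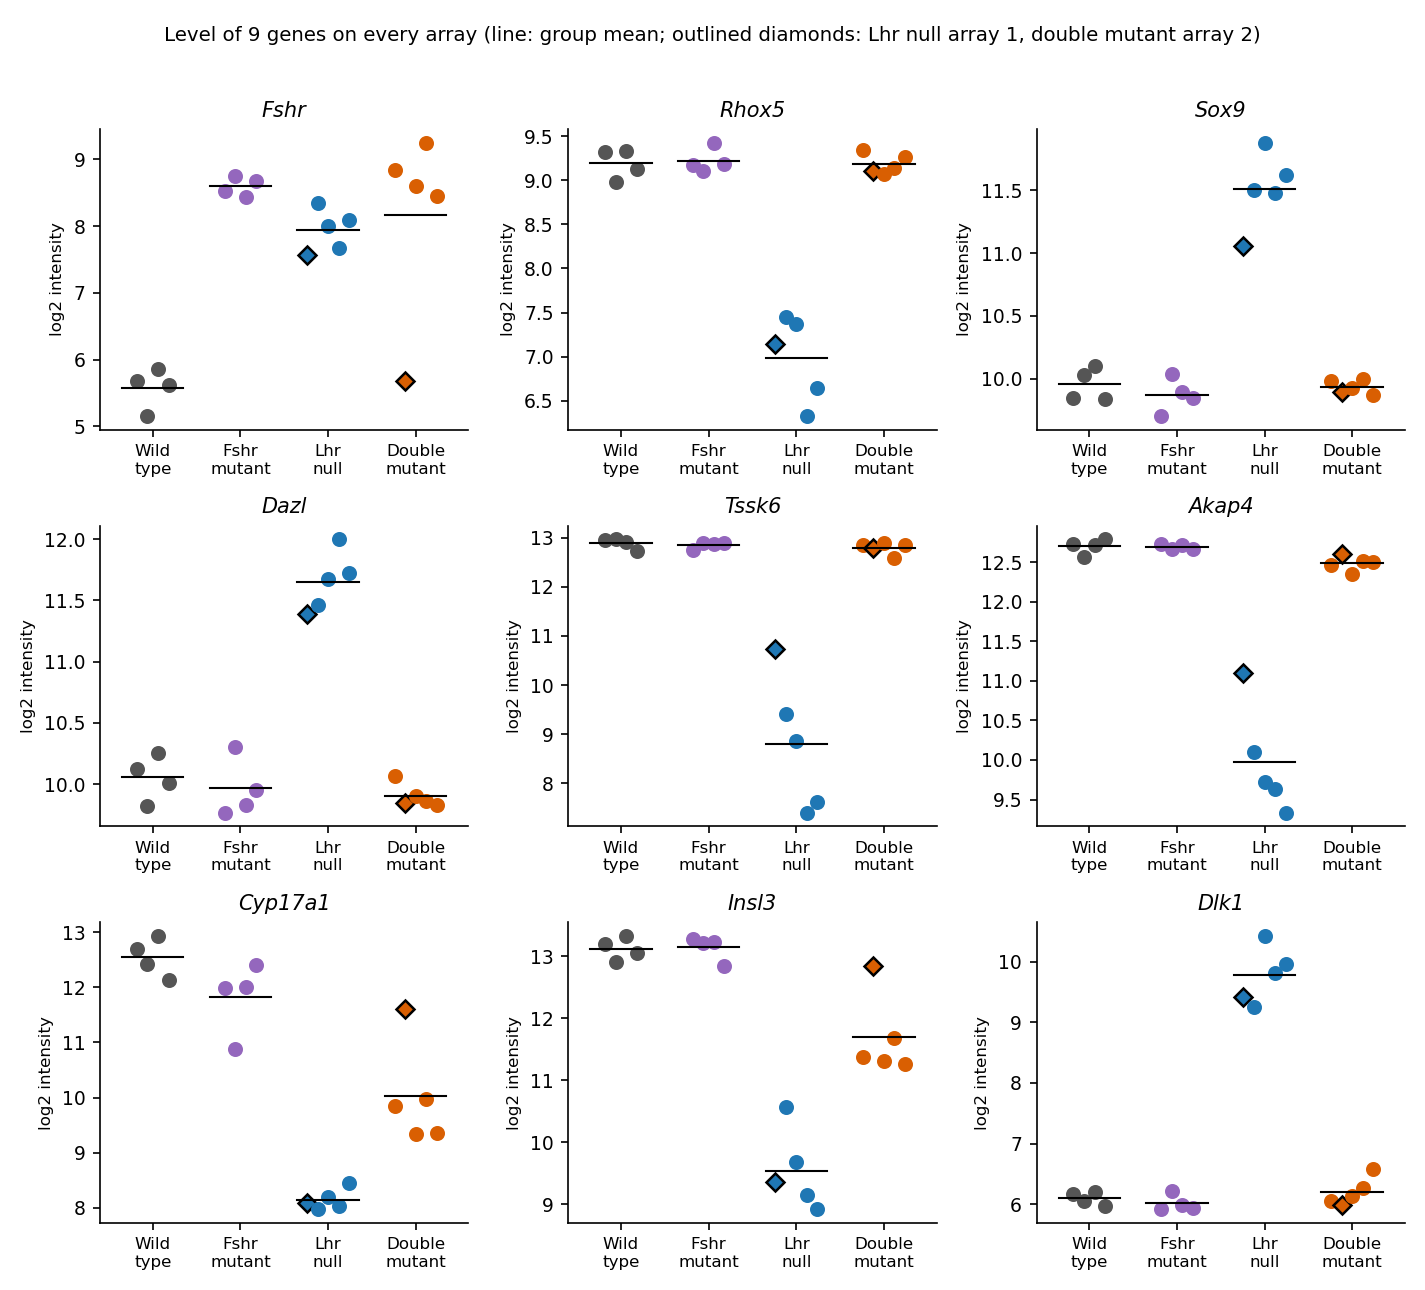
Log2 intensity (vertical axis) of 9 genes on each array of the 4 genotypes, 1 point per array with the group mean as a line; diamonds mark Lhr null array 1 and the array labelled double mutant 2. The double mutant lies at wild type height for Rhox5, Sox9, Dazl, Tssk6 and Dlk1, and between Lhr null and wild type for Cyp17a1 and Insl3, where the array labelled double mutant 2 is the highest of its group.

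Most of the testis transcriptome differed between the double mutant and Lhr null. Of 10386 genes, 7807 or 75.2% were called at an adjusted p under 0.05, with 2961 or 28.5% higher and 4846 or 46.7% lower in the double mutant. Among all probes, 74% were called. In 6168 genes, or 59.4%, the 5 double mutant values and the 5 Lhr null values did not overlap. Without the array labelled double mutant 2, 7612 genes or 73.3% were called, 27.8% higher and 45.4% lower, and 7534 genes were called the same way in both fits. The calls were more often lower, while the large changes were more often higher. A change of at least 1 on the log2 scale was seen in 1433 genes called higher and 1220 called lower, and a change of at least 2 in 475 and 38. Of the called genes 37.9% were higher, and 26.9% with no normalization between arrays. The median difference of all genes was -0.24. Under other scalings of the arrays this median ran from -0.47 with none to -0.07 with cyclic loess, so the differences below are to be read against it.

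Among the genes with the greatest increase, Lcn2, which encodes the iron-carrier protein lipocalin 2, led. Its log2 level was 5.06, 5.55, 5.82, 4.68 and 5.16 in Lhr null, where 2 of the 5 arrays detected it. In the double mutant it was 9.89, 12.25, 9.64, 10.19 and 9.95. The groups were far apart and the array labelled double mutant 2 was the highest, at the wild type level of 11.06 to 12.81. The difference was 5.13 ± 0.41 (adjusted p = 8.51e-09), and 4.66 without that array. Car2, a carbonic anhydrase, rose from 7.73, 6.40, 5.93, 4.78 and 5.31 to 10.41, 10.57, 10.63, 10.35 and 10.46, a difference of 4.45. The double mutant arrays of Car2 lay close together, at the wild type level of 10.34 to 10.54, while the Lhr null arrays were spread with array 1 at the top. The same shape held for Nudt16l2 (4.39), the testis-expressed gene Spata32 (4.29), Bpifa3 (4.24), Paqr5 (4.13), Tex46 (4.06), Ttc24 (4.03) and the clone-named genes 1700009J07Rik (4.12) and 1700020A23Rik (4.01). In each of these 8 genes Lhr null array 1 was the highest of its group, and no Lhr null array reached the lowest double mutant array.

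The greatest decrease was in 4930486L24Rik. It stood at 9.04, 9.17, 10.01, 8.85 and 9.12 in Lhr null and was not well above background on any double mutant array, so it passed the filter through Lhr null alone, with a fall of at least 12.4-fold (adjusted p = 4.25e-11). Dlk1, a membrane protein of the Notch ligand type that marks fetal and immature Leydig cells, was 9.42, 9.26, 10.42, 9.81 and 9.97 in Lhr null. It was 6.06, 5.996, 6.14, 6.27 and 6.58 in the double mutant, 11.9-fold lower (difference -3.57 ± 0.17, adjusted p = 8.83e-11). No array of one group came near the other, and the array labelled double mutant 2 was not apart here. Col18a1, a basement membrane collagen, fell from 10.24 to 11.41 down to 8.01 to 8.31, a difference of -2.80. The others that fell most were Fam155a (at least 3.02-fold) and Rab7b (at least 3.40-fold), neither detected on a double mutant array, and Hs6st2 (-2.80), Rasl12 (-2.76), Septin11 (-2.66), Shbg (-2.53) and the iron exporter Slc40a1 (-2.48).

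Genes of elongating spermatids rose in the double mutant. In the list of spermatid chromatin proteins, 7 of 8 tested genes were higher and none lower, with a median difference of 2.15 against -0.24 for all genes. Among all genes 28.5% were higher. Without the array labelled double mutant 2, 8 of 8 were higher. Tnp2, a transition protein that replaces histones before the protamines, was 9.66, 8.49, 7.26, 7.10 and 7.08 in Lhr null and 10.20, 10.70, 10.42, 10.30 and 10.39 in the double mutant. The groups did not overlap, and Lhr null array 1 came closest to the double mutant. The difference was 2.48 ± 0.35 (adjusted p = 5.23e-06). H1f7, the spermatid linker histone, rose by 3.06, and the protamine-like Prm3 by 2.76. H2al1m, a testis histone variant from a family of near-identical copies, gave 2.85, and which copy its probe reads is uncertain. Tnp1 rose by 1.27 and the protamine Prm1 by 0.63, and Prm1 was among the brightest genes in both groups (13.23 to 14.51 in Lhr null, 14.31 to 14.54 in the double mutant) with overlapping arrays. With cyclic loess Prm1 stood at 0.30 and was not called (adjusted p = 0.211). In whole testis, fewer cells of a type and less RNA per cell cannot be told apart.

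All 3 tested kinases of the testis-specific serine kinase family rose, with a median of 1.90, beside 28.5% higher among all genes. Tssk6, needed for chromatin packing in spermatids, was 10.73, 9.41, 8.86, 7.41 and 7.61 in Lhr null and 12.86, 12.78, 12.89, 12.58 and 12.85 in the double mutant, 15.9-fold higher (3.99 ± 0.41, adjusted p = 1.33e-07). The double mutant arrays lay close together, and the Lhr null arrays were spread with array 1 at the top. Tssk2 rose by 1.90 and Tssk4 by 1.701.

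The list for the sperm flagellum had 19 of 22 tested genes higher and none lower, median 1.34, beside 28.5% higher among all genes. Akap4, the main scaffold of the fibrous sheath of the tail, was 11.10, 10.10, 9.72, 9.64 and 9.34 in Lhr null and 12.46, 12.61, 12.35, 12.51 and 12.51 in the double mutant (2.51 ± 0.22, adjusted p = 1.65e-08). Smcp, a mitochondrial capsule protein of the midpiece, rose by 2.93, Odf1 of the outer dense fibres by 2.28 and Akap3 of the fibrous sheath by 2.13. The sperm calcium channel genes Catsper1, Catsper3 and Catsper4 rose by 1.61, 1.44 and 1.59. Axonemal dynein genes moved less, with Dnaic2 at 0.76, Dnah17 at 0.59 and Dnah2 at 0.26, all called, and Dnaic1 at 0.10 and Dnah8 at -0.02, not called.

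In the acrosome list, the cap that carries the enzymes for entering the egg coat, 14 of 16 tested genes were higher and none lower, median 1.18. The share of all genes called higher was 28.5%. Theg, a spermatid gene placed in that list, rose by 2.35, and Eqtn of the acrosomal membrane by 1.77. Izumo1, the sperm protein that binds the egg membrane, was 10.61, 9.97, 9.06, 9.09 and 9.43 in Lhr null and 11.09, 11.26, 11.12, 11.34 and 11.55 in the double mutant (1.64 ± 0.22, adjusted p = 2.11e-06). Acrv1, made from the round spermatid stage on, rose by 1.19, with 10.67 to 11.97 in Lhr null and 12.44 to 12.71 in the double mutant. Of the sperm ADAM proteins, membrane proteins of sperm that take part in maturation and adhesion, 9 of 10 were higher and none lower, median 0.83. Adam6a (2.17) and Adam4 (2.15) rose most, and Adam6a and Adam6b (1.67) are close copies whose probes may share signal.

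Factors that control spermatid genes rose in 5 of 8 cases and fell in none, median 0.67. Of the 6 detected on all 10 arrays 3 rose, not far from the 28.5% of all genes that were higher. Those detected on no Lhr null array, 2 of the 8, passed the filter through the double mutant alone. Camk4, a calcium-dependent kinase, was detected on no Lhr null array and on all 5 double mutant arrays, at least 3.22-fold higher, and Sox30, a transcription factor needed for the round spermatid stage, was likewise at least 2.27-fold higher. Fhl5, a partner of CREM, rose by 1.90. Crem itself, which encodes a cyclic AMP response factor with many isoforms, gave 10.85 to 11.40 and 11.50 to 11.68 (0.56 ± 0.10, adjusted p = 8.80e-05), on a gene whose probes were called in opposite directions. Averaged over its probes the difference was -0.10. For germ cell metabolism 4 of 9 genes were higher and 1 lower, median 0.02. Gapdhs, the sperm form of the glycolytic enzyme, rose by 2.78 and Pgk2 by 1.25, while Ldhc, the lactate dehydrogenase that appears already in spermatocytes, was 14.69 to 14.73 in Lhr null and 14.67 to 14.80 in the double mutant and was not called (0.02, adjusted p = 0.894). Its normalized values were among the brightest and tied at 14.73 on arrays of both groups, so a change there could hardly be seen. With cyclic loess Ldhc turned to -0.50.

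CREM binds the full cyclic AMP response element TGACGTCA, which reads the same on both strands. It was searched in promoters of 300 bases around the gene starts of RefSeq on GRCm38.p6. It occurred in 2.03% of 27025 promoters, in 3.67% of the tested genes with a promoter there, in 3.41% of those called higher and in 3.91% of those called lower. Of the 58 tested members of the spermatid and germ cell metabolism lists with a promoter there, 1 held it, a share of 1.72%. That gene is Izumo1, and its promoter is printed because it is the 1 member of those lists with the element, which stands in capitals 96 bases before the start site, on chr7:45621561-45621860, plus strand.
Izumo1: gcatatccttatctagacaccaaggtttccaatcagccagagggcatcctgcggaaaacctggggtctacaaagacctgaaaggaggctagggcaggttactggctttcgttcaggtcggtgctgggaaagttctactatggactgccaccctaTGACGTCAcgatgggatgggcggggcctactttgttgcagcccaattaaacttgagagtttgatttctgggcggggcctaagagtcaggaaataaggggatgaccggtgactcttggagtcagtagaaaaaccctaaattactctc
The share says only how often these letters stand in these windows.

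In the plot of list members, the 6 lists of spermatid genes drawn and the androgen-responsive Sertoli genes stand to the right of the median of all genes. The list of germ cell metabolism, median 0.02, is not drawn there. Leaving out Lhr null array 1 raised the list medians, to 2.51 for spermatid chromatin, 2.18 for spermatid kinases, 1.47 for the flagellum and 1.35 for the acrosome. On each of these 4 lists that array had the highest mean level of its group, 11.77 against 9.98 to 10.91 for spermatid chromatin and 10.26 against 9.54 to 9.85 for the flagellum. The double mutant arrays had 12.37 to 12.52 and 10.97 to 11.02, so no Lhr null array overlapped them.

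**Figure D2:**
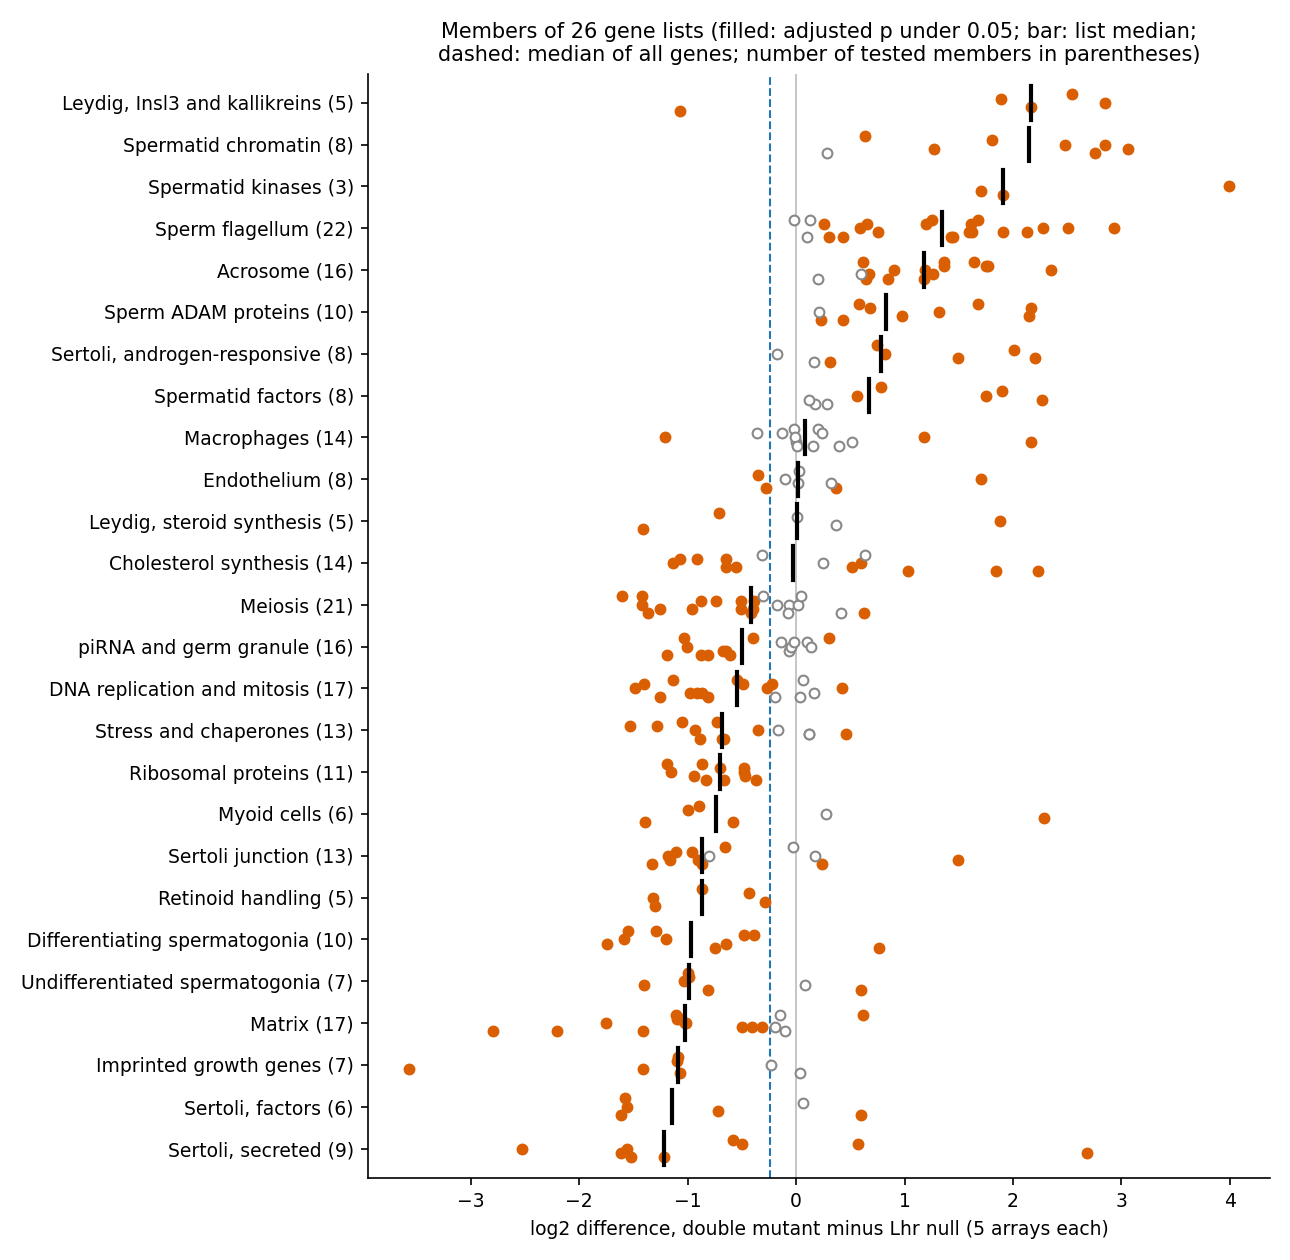
Log2 difference between the double mutant and Lhr null (horizontal axis, 5 arrays each) of each tested member of 26 gene lists, ordered by list median; filled points were called and open points were not, and the dashed line is the median of all genes at -0.24. The spermatid lists drawn, which leave out germ cell metabolism, have medians of 0.67 to 2.15. The lists of spermatogonia, matrix and secreted Sertoli products have medians of -0.97 to -1.22.

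Sertoli cell genes moved in both directions. Among genes known to respond to androgen in Sertoli cells, 6 of 8 tested were higher and none lower, median 0.78. Of the 7 detected on all 10 arrays 5 were higher, beside 28.5% higher among all genes. Rhox5, a homeobox gene of the X chromosome and a classical androgen receptor target of Sertoli cells, was 7.15, 7.45, 7.37, 6.33 and 6.64 in Lhr null. In the double mutant it was 9.35, 9.11, 9.07, 9.14 and 9.26, against 8.98 to 9.33 in wild type. No Lhr null array reached the double mutant, which overlapped wild type. The difference from Lhr null was 2.20 ± 0.17 (adjusted p = 5.42e-09), and that from wild type was not called (adjusted p = 0.995). Defb45, a defensin, rose by 2.01 with 7.37 to 8.78 in Lhr null and 9.96 to 10.26 in the double mutant. Cldn3, a claudin of new tight junctions, was detected on no Lhr null array and on all 5 double mutant arrays, at least 1.76-fold higher. It thus passed the filter through the double mutant alone. Corin rose by 0.82. B4galnt1 and Tpd52l1, in the same list, were at 0.17 and -0.18 and were not called. Without Lhr null array 1, 6 of the 8 were higher and 1 lower.

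Secreted Sertoli products and Sertoli factors were mostly lower, beside 46.7% lower among all genes. In the list of secreted products, 7 of 9 tested genes were lower and 2 higher, median -1.22, and without the array labelled double mutant 2 the counts were 6 and 1. Shbg, which encodes androgen-binding protein, was 8.64, 9.29, 9.28, 8.80 and 9.03 in Lhr null and 6.61, 6.30, 6.71, 6.53 and 6.27 in the double mutant (-2.53 ± 0.14, adjusted p = 3.23e-10). Inha, the inhibin alpha subunit and a target of follicle stimulating hormone, was 9.73 to 10.41 in Lhr null and 8.24 to 8.66 in the double mutant (-1.53), and wild type had 7.90 to 8.24. Cst12 fell by 1.61. The related cystatin gene Cst9 was 12.63 to 13.72 in Lhr null and 12.76, 9.88, 12.05, 12.74 and 10.40 in the double mutant. Arrays 2 and 5 of the double mutant were low, and the call (-1.56, adjusted p = 0.0164) ended without array 2 (-1.14, adjusted p = 0.057). Ptgds, prostaglandin D synthase, went the other way and is given with the Leydig cell genes, and Trf, transferrin, rose by 0.57 with a call that ended without array 2 (adjusted p = 0.102).

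Sox9, the transcription factor of Sertoli cell fate, was 11.06, 11.50, 11.88, 11.48 and 11.62 in Lhr null and 9.98, 9.89, 9.92, 9.997 and 9.87 in the double mutant (-1.58 ± 0.12, adjusted p = 4.09e-09). The double mutant values lay inside the wild type range of 9.84 to 10.10. Of the 6 Sertoli factors tested 4 were lower and 1 higher, median -1.14, and Tcf21 (-1.62) and Etv5 (0.59) in that list are also made by other testis cells. Of the 2 factors detected on all 10 arrays both were lower. The junction list, proteins of the blood-testis barrier, had 8 of 13 lower and 2 higher, median -0.87, and 4 of the 7 detected on all 10 arrays were lower and 1 higher. The count of 4 of those 7 was not far from the share of all genes, of which 46.7% were lower. Cldn11, the main claudin of that barrier, fell from 13.34 to 13.74 down to 12.10 to 12.40 (-1.33), and Gja1, the gap junction protein connexin 43, fell by 1.16. Of the retinoid genes 5 of 5 were lower, median -0.87, and 4 of 5 without the array labelled double mutant 2. Of these 5, 3 were detected on no double mutant array and so passed the filter only through Lhr null, and both members detected on all 10 arrays were lower. Crabp1, a retinoic acid binding protein of spermatogonia, was detected on all Lhr null arrays and on no double mutant array, at least 1.97-fold lower.

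Genes of germ cells before the spermatid stage were more often lower than higher, as were all genes, of which 46.7% were lower. Of genes of undifferentiated spermatogonia 5 of 7 were lower and 1 higher, median -0.99, and of differentiating spermatogonia 9 of 10 were lower and 1 higher, median -0.97. Of those detected on all 10 arrays, 3 of 3 and 7 of 8 were lower. Foxo1, a transcription factor that maintains spermatogonial stem cells, fell by 1.40, Sall4 by 1.00 and Id4 by 1.03. Dazl, which encodes a germ cell protein that binds RNA, was 11.39, 11.46, 11.67, 12.00 and 11.72 in Lhr null and 10.06, 9.85, 9.90, 9.86 and 9.83 in the double mutant (-1.75 ± 0.12, adjusted p = 2.44e-09). The groups did not overlap. Kit, the receptor of differentiating spermatogonia, was 8.17 to 9.06 and 7.27 to 7.69 (-1.20). Stra8, the retinoic acid target that opens meiosis, was detected on 4 Lhr null arrays and no double mutant array, at least 1.11-fold lower. Rec8, a meiotic cohesin in the same list, was higher (0.77).

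The meiosis list had 13 of 21 genes lower and 1 higher, median -0.41, and the list of piRNA and germ granule genes 9 of 16 lower and 1 higher, median -0.50. Of all genes 46.7% were lower and 28.5% higher, so both lists lay somewhat above the lower share and held few higher members. With median scaling the meiosis list had 10 of 21 lower and a median 0.06 under that of all genes. Tex101, a germ cell surface protein, fell by 1.61, with 10.52 to 11.02 in Lhr null and 8.95 to 9.31 in the double mutant. Meiob, which binds recombination intermediates, fell by 1.42, as did the synaptonemal complex gene Sycp1. Mov10l1, a helicase of piRNA synthesis, fell by 1.19. Ccna1, the cyclin of late spermatocytes, was higher (0.62), and Spo11, Hspa2, Ddx4 and Ddx25 were between -0.18 and -0.04 and were not called.

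Genes of growth and division moved the same way. Of 17 genes of DNA replication and mitosis 12 were lower and 1 higher, median -0.55, with the replication helicase subunits Mcm4 (-1.49), Mcm5 (-1.40), Mcm2 (-1.26) and Mcm6 (-1.13) at the front. The mitotic kinase gene Plk1 was higher (0.42). All 11 tested ribosomal protein genes were lower, median -0.70, and Rps3 was 11.69 to 12.00 in Lhr null and 10.59 to 10.74 in the double mutant. With median scaling of the arrays 8 of the 11 were lower. The stress and chaperone list had 9 of 13 lower and 1 higher, median -0.68, and 6 of the 10 detected on all 10 arrays were lower. Beside these counts, 46.7% of all genes were lower. Hspa8, a chaperone of all cells, fell from 12.00 to 12.64 down to 10.74 to 11.02 (-1.53). Genes often used as references also differed. Gapdh fell by 1.06, and Actb, whose probes were called in opposite directions, rose by 0.99 on its brightest probe.

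Matrix and peritubular genes were mostly lower as well, beside 46.7% lower among all genes. In the matrix list 13 of 17 were lower and 1 higher, median -1.02, but 5 were detected on no double mutant array and entered only through Lhr null. Of the 11 detected on all 10 arrays 8 were lower and 1 higher. Mgp, matrix Gla protein, was 9.98, 10.92, 10.14, 9.86 and 10.49 in Lhr null and 7.96 to 8.23 in the double mutant (-2.20 ± 0.20, adjusted p = 3.22e-08). Dcn, the proteoglycan decorin, fell by 1.75 and Col6a1 by 1.41, while Lum, lumican, rose by 0.62. Of the myoid genes 4 of 6 were lower and 1 higher, median -0.74, not far from the share of all genes. Acta2, smooth muscle actin, fell by 1.39, while Actg2, another smooth muscle actin gene, rose by 2.29, with 11.52, 10.72, 9.495, 9.86 and 9.55 in Lhr null and 12.35 to 12.63 in the double mutant. Of the imprinted growth genes 5 of 7 were lower and none higher, median -1.09. Besides Dlk1 these included Peg3 (-1.41), and the growth factor gene Igf2 (-1.10).

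Markers of macrophages and endothelium moved little by list median. Macrophage genes had 2 of 14 higher and 1 lower, median 0.08, and endothelial genes 2 of 8 higher and 2 lower, median 0.02. Among all genes 28.5% were higher and 46.7% lower. Of the 8 endothelial genes, 2 were detected on no double mutant array and so entered only through Lhr null. The 4 detected on all 10 arrays included 2 higher and none lower. Single macrophage genes went far from their list. Aif1, known from macrophages, rose by 2.16 and was 10.75, 9.84, 9.003, 9.16 and 9.15 in Lhr null and 11.62 to 11.83 in the double mutant. Csf1r (0.15) and Adgre1 (0.40), the defining macrophage receptors, were not called, and Mpeg1 was lower (-1.21). The lymphocyte and red cell lists had only 2 tested members each, which did not move together, with medians of 1.17 and 1.34. Cd3d, a chain of the T cell receptor complex, rose by 3.01 with 7.02 to 8.52 in Lhr null and 10.18 to 10.82 in the double mutant. Its partner Cd3e was detected on all Lhr null arrays and on no double mutant array. Alas2, the heme synthesis enzyme of red cells, rose by 2.69 and was detected on 3 Lhr null arrays, whereas the globin gene Hba-a1 stood at -0.01 and was not called. For Aif1, Cd3d and Actg2, as for the spermatid genes, Lhr null array 1 was the highest of its group. No epididymis marker passed the filter.

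**Figure D3:**
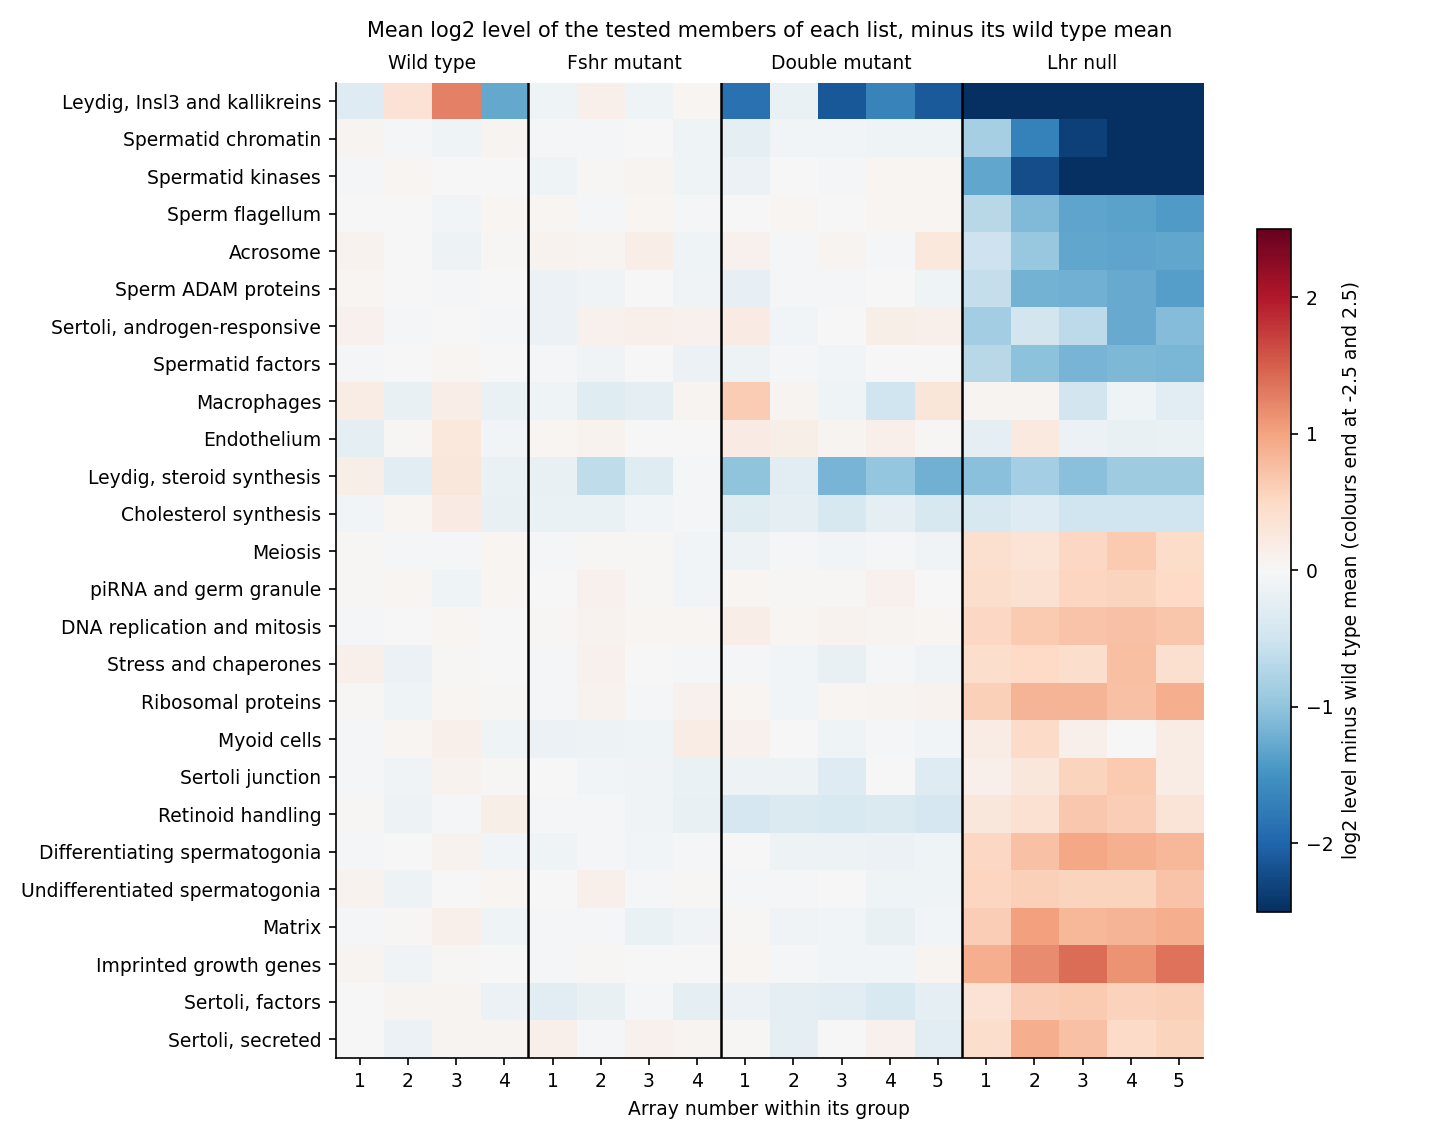
Mean log2 level of the tested members of each of 26 lists on each of the 18 arrays, minus the wild type mean of the list (colour scale, blue lower and red higher). The 5 double mutant arrays lie nearer to wild type than Lhr null arrays do on the spermatid lists. On the list of other Leydig cell products the array labelled double mutant 2 is the highest of its group, and Lhr null array 1 is the closest of its group to wild type on the spermatid lists.

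Leydig cell genes rose in part. Cyp17a1, which turns progestins into androgens, was 8.09, 7.97, 8.19, 8.03 and 8.46 in Lhr null and 9.85, 11.60, 9.35, 9.97 and 9.36 in the double mutant, against 12.13 to 12.93 in wild type. All double mutant arrays lay above all Lhr null arrays and below all wild type arrays, and the array labelled double mutant 2 was the highest. The difference from Lhr null was 1.88 ± 0.35 (adjusted p = 9.43e-05), and 1.48 without that array (adjusted p = 4.39e-05). Insl3, the insulin-like hormone of mature Leydig cells, was 9.36, 10.56, 9.68, 9.15 and 8.92 in Lhr null. In the double mutant it was 11.38, 12.85, 11.31, 11.68 and 11.26 (2.16 ± 0.29, adjusted p = 2.68e-06), again with array 2 at the top.

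Cyp11a1, the enzyme that starts steroid synthesis from cholesterol, was 5.43 to 6.15 in Lhr null and 6.11, 7.11, 6.42, 6.11 and 5.82 in the double mutant. The groups overlapped and the difference was not called (0.37 ± 0.24, adjusted p = 0.170). Beside the list counts that follow, 28.5% of all genes were higher and 46.7% lower. Of the 5 tested genes of steroid synthesis 1 was higher and 2 lower, median 0.01, and this median changed sign under 9 of 24 alternatives. The 2 that were lower, Cyb5a (-1.41) and Tspo (-0.71), are made by many cell types. In the list of other Leydig cell products 4 of 5 were higher and 1 lower, median 2.16, and 1.87 without array 2. Of these 5, 2 were detected on no Lhr null array and 1 on no double mutant array, so the filter fixed their direction, and the 1 detected on all 10 arrays was higher. The kallikrein genes Klk1b21, Klk1b24 and Klk1b27 were higher, and these are close copies whose probes may share signal. Klk1b21 was 4.74 to 5.64 in Lhr null, where 2 arrays detected it, and 7.51, 9.90, 7.14, 8.12 and 7.25 in the double mutant. Klk1b24 and Klk1b27 were detected on no Lhr null array, with rises of at least 2.56-fold for Klk1b24 and at least 3.44-fold for Klk1b27. Hsd11b1, a glucocorticoid-activating enzyme, was detected on no double mutant array and was at least 1.41-fold lower. Ptgds, made by Leydig and Sertoli cells, was 4.70 to 5.97 in Lhr null, where 2 arrays detected it, and 7.49, 8.80, 7.97, 8.04 and 7.55 in the double mutant (2.69 ± 0.24). Star and Hsd17b3 had probes, none of which passed the filter, so no difference was tested. One Hsd17b3 probe had a mean of 7.44 in wild type and 4.44 in Lhr null. It was 4.87, 7.03, 4.95, 4.53 and 4.45 in the double mutant. Star had means of 6.34 and 4.59, and was 4.47, 6.11, 4.41, 4.51 and 4.51 in the double mutant. Both were detected on all 4 wild type arrays, no Lhr null array and 1 double mutant array.

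Cholesterol synthesis genes split, with 5 of 14 higher and 6 lower, median -0.03. These shares were near those of all genes, 28.5% higher and 46.7% lower, and the median changed sign under 7 of 24 alternatives. Cyp51, the lanosterol demethylase, rose by 1.84, and Insig1, a regulator of sterol synthesis whose probes were called in opposite directions, by 2.23. Msmo1 fell by 1.14 and Hsd17b7 by 1.07. Among genes that answer to cyclic AMP 4 of 10 were higher and 3 lower, median -0.13, not far from the shares of all genes. Jund, a member of the AP-1 factors, was 6.05, 5.48, 5.77, 5.42 and 5.32 in Lhr null and 7.66, 7.81, 7.91, 7.49 and 7.80 in the double mutant (2.13 ± 0.12, adjusted p = 4.61e-10), against 7.67 to 7.82 in wild type. Egr1, an immediate early factor, fell by 1.25 with overlapping arrays, and Pde4b, which breaks down cyclic AMP, fell by 0.91. Of 6 hormone and growth factor receptors 4 were lower and 1 higher, again not far from the shares of all genes. Rxfp2, the receptor of INSL3, rose by 0.70, Igf1r fell by 0.99 and the estrogen receptor gene Esr1 by 0.97. Of the somatic forms of glycolytic enzymes 5 of 9 were higher and 1 lower, median 0.51, beside 28.5% higher among all genes. Hk1 (2.73), a hexokinase gene that also has a germ cell form, led them.

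Against wild type, few of the genes tested were called in the double mutant. The filter counted detection on double mutant and Lhr null arrays only. Genes detected in wild type but on too few of those arrays, such as Star and Hsd17b3, were therefore not tested. The counts below leave such genes out and may understate the difference from wild type. With all arrays 87 of the 10386 genes or 0.838% were called, 26 or 0.25% higher and 61 or 0.587% lower. Without the array labelled double mutant 2 they were 131 or 1.26%, with 24 or 0.231% higher and 107 or 1.03% lower. These counts are unstable, since 0 genes were called without double mutant array 3 or without array 5, 13 without array 1 and 34 without array 4. With array weights 791 were called. At an unadjusted p under 0.05, 1655 of the 10386 genes differed with all arrays and 1570 without array 2. In both cases the share was above the 0.05 set as threshold. The genes named from this comparison were chosen after their values were seen, except those of the lists and of the fixed set. The comparison shares the double mutant arrays with the one above, so each keeps its own values.

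Of the 6 spermatid lists, only that of sperm ADAM proteins held a gene called against wild type, 1 that was higher, and none held one without the array labelled double mutant 2. Their medians without it ranged from -0.12 to 0.08. No gene was called in the lists of androgen-responsive Sertoli genes (median 0.08), both spermatogonia lists (-0.10 and -0.17) and of meiosis (-0.02), the medians being without that array. In the Leydig cell lists, 1 of the 5 tested other products and 1 of the 5 tested steroid synthesis genes were lower than wild type with all arrays. Without array 2 these counts were 4 and 2, with medians of -2.37 and -0.46. Without array 2, Cyp17a1 stood at -2.91 against wild type (adjusted p = 1.69e-05), Insl3 at -1.71, Cyp11a1 at -1.30, Klk1b27 at -2.86 and Lcn2 at -1.83. With array 2 included the calls of Klk1b27 (adjusted p = 0.127), Lcn2 (0.143) and Cyp11a1 (0.054) ended. The wild type arrays themselves were spread for the kallikreins, with 6.93 to 11.42 for Klk1b27.

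**Figure D4:**
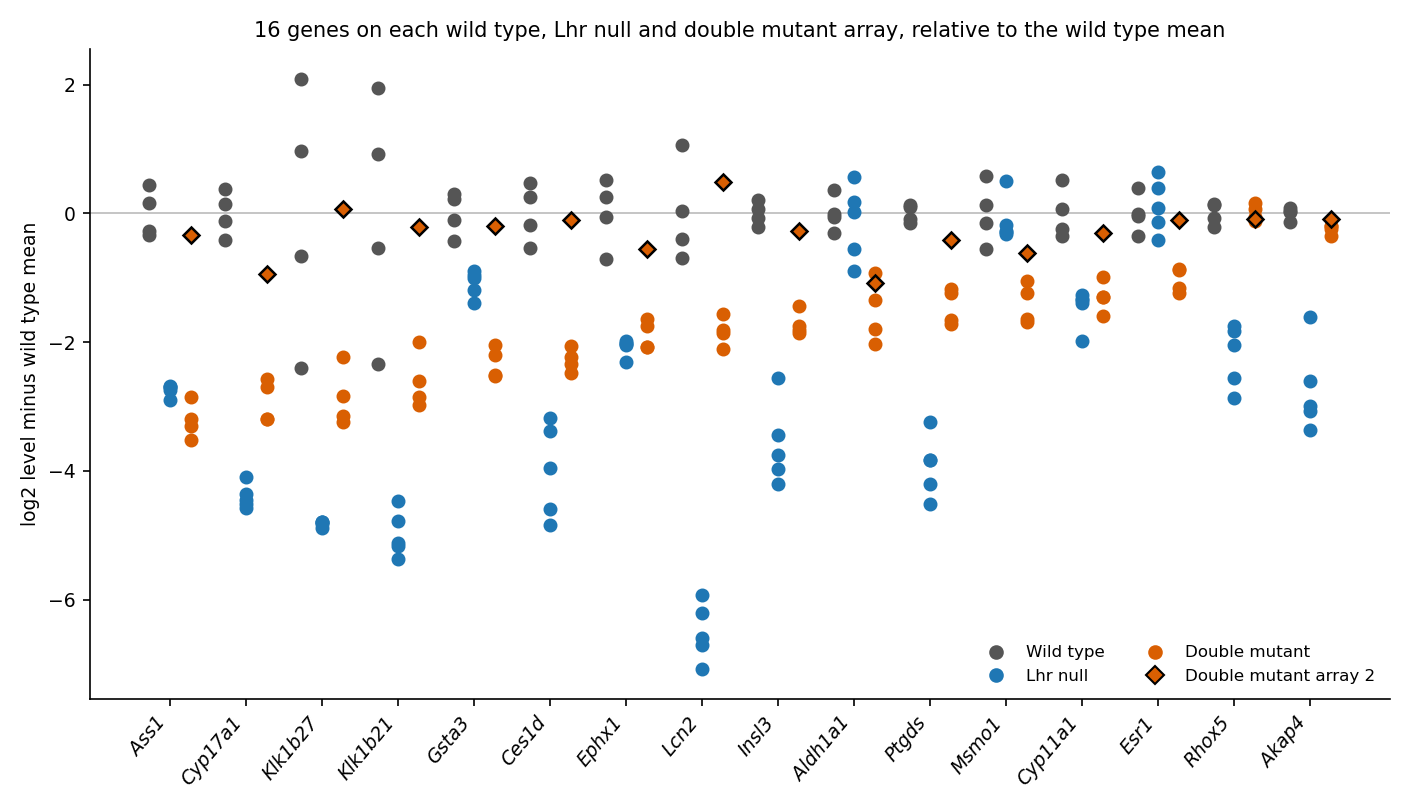
Log2 level minus the wild type mean (vertical axis) of 16 genes on each wild type, Lhr null and double mutant array, 1 point per array; the diamond is the array labelled double mutant 2. For Ass1, Cyp17a1, Gsta3, Ces1d, Insl3 and Ephx1 the other 4 double mutant arrays lie below every wild type array while the diamond is nearer to the wild type range or inside it. Rhox5 and Akap4 lie near 0 on all 5 arrays.

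Some of the genes below wild type had been raised over Lhr null and some had not. Ces1d, a carboxylesterase, was 4.68 to 6.34 in Lhr null (detected on 3 arrays), 7.29, 9.41, 7.05, 7.47 and 7.18 in the double mutant and 8.99 to 9.99 in wild type. It thus lay above Lhr null (2.14, adjusted p = 7.57e-05) and below wild type (-1.84, adjusted p = 0.047). The call against wild type ended without double mutant array 1, 3, 4 or 5 and without Lhr null array 3. It also ended with cyclic loess, with no detection filter and with the replicate block. Ass1, argininosuccinate synthase, was 5.95 to 6.17 in Lhr null and 5.99, 8.51, 5.54, 5.65 and 5.32 in the double mutant, where 2 arrays detected it. It was not called against Lhr null (0.10, adjusted p = 0.856) and stood at -3.22 against wild type without array 2 (adjusted p = 1.12e-05). Ephx1, an epoxide hydrolase, showed the same pattern, with 7.92 to 8.24 in Lhr null and 8.48, 9.67, 8.15, 8.59 and 8.15 in the double mutant against 9.51 to 10.74 in wild type.

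Some genes were low in the double mutant against both other genotypes. Gsta3, a glutathione transferase active in steroid-making cells, was 9.51 to 10.01 in Lhr null and 8.69, 10.71, 8.38, 8.86 and 8.397 in the double mutant. Without array 2 it stood at -1.23 against Lhr null (adjusted p = 5.51e-05) and -2.31 against wild type (adjusted p = 2.77e-05), and with array 2 at -0.81 (adjusted p = 0.0414) and -1.89. Its call against Lhr null with array 2 ended under 12 of 24 alternatives. Aldh1a1, a retinaldehyde dehydrogenase, was 9.38 to 10.84 in Lhr null, 9.97 to 10.64 in wild type and 8.93, 9.19, 8.25, 9.36 and 8.48 in the double mutant. All 5 double mutant arrays lay below every array of the other 2 groups, at -1.30 (adjusted p = 1.60e-04) against Lhr null and -1.44 (adjusted p = 0.0274) against wild type. Msmo1, a sterol methyl oxidase, gave -1.14 and -1.25 (adjusted p = 2.07e-04 and 0.0315), and its double mutant arrays ran from 7.15 to 8.22 below 8.29 to 9.41 in wild type. Esr1 was 5.19 to 6.25 in Lhr null and 4.72, 5.504, 4.37, 4.44 and 4.74 in the double mutant, where 1 array detected it. Against wild type Esr1 was not called with all arrays (-0.85, adjusted p = 0.0948) and was without array 2 (-1.04, adjusted p = 0.017). Dcn gave -1.75 and -0.58 (adjusted p = 0.0474 against wild type), a call that ended under 12 alternatives. Those of Aldh1a1 and Msmo1 against wild type ended without double mutant array 1, 3 or 5, with no detection filter and with the replicate block. Aldh1a1 was the 1 of 5 genes of the retinoid list called against wild type, and the median of that list was -0.10.

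Higher than wild type by at least 1 on the log2 scale, without array 2, were 5 genes, chosen after their values were seen. Besides Fshr (3.21, with no test since its value chose the array left out; 2.59 and adjusted p = 0.0245 with all arrays) they were Gtf2ird2 (1.99), Gm6583 (1.24), Tmem198 (1.14) and Antxr2 (1.04), and each of these 4 was also called with array 2 included. Tmem198 was 4.79 to 5.399 in Lhr null, where 1 array detected it, and 6.001 to 6.92 in the double mutant, above Lhr null by 1.46 (adjusted p = 1.76e-06).

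The genes whose difference from Lhr null moved most without the array labelled double mutant 2 were Fshr, Klk1b27, Ass1, Cptp, Cypt4 and 1700030N03Rik. The last 3 were spread inside the double mutant beyond that array. Cypt4 was 7.13, 8.43, 12.31, 13.14 and 13.12 in the double mutant and 10.31 to 11.32 in Lhr null, and was not called (-0.01, and 0.59 without array 2). Cptp was 10.39, 9.48, 4.84, 5.25 and 4.74 in the double mutant, a spread like that of its Lhr null arrays from 4.77 to 9.29. For 1700030N03Rik, 3 double mutant arrays detected it, and the difference was 1.49 (adjusted p = 0.0941) with array 2 and 2.05 (adjusted p = 0.0209) without.

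Over all 33 lists with a tested member, the counts of called genes were the same without the array labelled double mutant 2 in 25, without Lhr null array 1 in 24 and without both in 19. The medians of the spermatid, spermatogonia, meiosis, ribosomal and androgen-responsive lists kept their sign under all 24 alternatives.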

How the data were processed

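The authors hybridised labelled RNA of whole testis to Illumina bead arrays and deposited, per the file headers, a table of intensity without normalization and a detection p-value for each of 45281 probes. GenomeStudio 1.7.0 is named in the submitters' processing notes. Their processed table, made by steps not given in the sources used here, served as an alternative on the log2 scale. Of the probes 34885 have 1 gene symbol in the platform annotation, 18 several and 10378 none.

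Intensities were background-corrected with normexp from the detection p-values (offset 16), quantile normalized and taken to log2 in limma 3.58.1 under R 4.3.3. Probes with a detection p under 0.01 on at least 4 of the 10 arrays were kept. The 4 group means were fitted over all 18 arrays with empirical Bayes moderation, p-values were adjusted by Benjamini-Hochberg over 18161 probes, and each gene took its brightest probe. A level with no detection on any array of a group is a bound. The script was tested on simulated data.

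Named genes were the 10 highest and 10 lowest, up to 4 called members of each list with up to 2 of opposite sign, a fixed set, and the 6 genes that depended most on the array labelled double mutant 2. Other genes named were chosen after their values were seen. The members, lists and tests were chosen with earlier results of these data known. The replicate numbers did not pair the samples. Promoter sequences are from RefSeq on GRCm38.p6.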

Additional observations from a re-analysis of the deposited data

Results flagged for a closer look

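Among 156 sets of values of 1 gene in 1 genotype, 19 had an array whose gap to its neighbour was too wide a share of the range by Dixon's limits for 4 or 5 arrays. Chance gives about 1 in 20. The array labelled double mutant 2 accounted for 9 of the 19, but the genes include Fshr and others chosen for their dependence on that array or after their values were seen, so this count is a description.

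On that array Fshr was low at 5.68, with 8.45 to 9.25 on the other 4 double mutant arrays. The other 8 genes were high on it. Lcn2 stood at 12.25 with the rest up to 10.19, Cyp17a1 at 11.60 with the rest up to 9.97, and Insl3 at 12.85 with the rest up to 11.68. Klk1b24 stood at 8.37 with the rest up to 6.57, and Ass1 at 8.51 with the rest up to 5.99. Gsta3 stood at 10.71 with the rest up to 8.86, Ephx1 at 9.67 with the rest up to 8.59, and Ces1d at 9.41 with the rest up to 7.47. For Lcn2, Klk1b24, Gsta3, Ephx1 and Ces1d this lay inside the wild type range.

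In Lhr null, 4930486L24Rik was high on array 3 (10.01), Slc40a1 low on array 1 (8.71), Cyp11a1 low on array 3 (5.43), Msmo1 high on array 2 (9.34) and Ephx1 low on array 4 (7.92). In the double mutant, Dazl was high on array 1 (10.06) and Acrv1 on array 4 (12.71). In wild type, 4930486L24Rik was high on array 3 (5.58), Cst9 low on array 2 (10.10) and Actb high on array 3 (13.15).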

How the results depend on the processing

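The genes called between the double mutant and Lhr null numbered 6232 to 8427 over the alternatives and 7564 to 7880 when 1 array was left out. With no normalization between arrays 1924 genes were higher, and 26.9% of the called genes were higher, against 46.6% with cyclic loess and 37.9% in the report. The genes called against wild type numbered 0 to 131 when 1 array was left out, with 57 without Lhr null array 3. They were 48 with no detection filter, 791 with array weights and 152 without both the array labelled double mutant 2 and Lhr null array 1, a setting chosen after seeing the data. With the replicate number as a block, 7773 genes were called against Lhr null and 8 against wild type. The correlations of same-numbered arrays ran from -0.15 to 0.25, so the numbers were not taken as pairs. Directions turned for Fshr (-1.13) and Crem (-0.10) averaged over their probes and for Ldhc (-0.50) with cyclic loess; the cause was not tested. Of the named genes' values against Lhr null, 1213 kept direction and call, 16 lost the call, 3 gained it and 3 turned. Against wild type 1096 kept both, 64 lost the call and 23 gained it. A slide block was not run because the files used here name no slides. The number of arrays and signals near background limit low genes, and probes of 355 genes were called in opposite directions.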

Other observations

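Genes of the X chromosome were lower in the double mutant more often than the rest. Of 370 tested, 102 were higher and 218 lower, 27.6% and 58.9%, median -0.61, against 28.5% and 46.3% and a median of -0.23 for the 9986 genes listed elsewhere than on X. On the Y chromosome 9 of 13 tested genes were higher and 1 lower, median 0.82. Genes still known by a RIKEN clone name, a set chosen after values were seen, were mostly higher, with 166 of 219 higher and 22 lower, median 1.19.

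In 72 genes the arrays of the double mutant or of Lhr null spanned over 3 on the log2 scale, and in 14 genes both groups did. Galntl6 was 9.39, 4.36, 9.90, 4.45 and 4.55 in Lhr null and 10.69, 9.43, 9.80, 4.60 and 4.45 in the double mutant, with high and low arrays in both groups.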
